A study of Mus musculus with 11 samples.

Results

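Noncoding VEGA transcripts are features that the deposited tables mark as noncoding and name by an identifier of VEGA, a catalogue of hand-curated vertebrate gene models. All rows with that mark were taken, which gave 1258 of the 48942 features in the Dcr table and 497 of the 39889 features in the cMyc table. All 497 were also among the 1258. The cells were mouse embryonic stem cells of strain 129S4/SvJae, kept on gelatin free of feeder cells. Poly(A)-selected RNA was sequenced from wild-type cells (Dcr WT, 2 libraries), from Dicer knockout lines 1, 3 and 4 (Dcr KO, 1 library a line), from cMyc flox/flox cells (cMyc flox, 1 library) and from cMyc knockout cells (cMyc KO, 1 library). Both sides of the Dcr comparison were read as paired ends and both sides of the cMyc pair as single ends. No label says that the 2 wild-type libraries came from separate cultures, so their part of the spread behind each p-value may be technical. The spread within Dcr KO lies between lines with 1 library each.

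Dicer cuts microRNA precursors into mature microRNAs, which guide Argonaute proteins to messenger RNAs and lower their stability and translation. Cells without Dicer therefore lack nearly all mature microRNAs. Myc is a transcription factor that binds the promoters of many active genes in stem cells, and the series title places it between microRNAs and long noncoding RNAs. VEGA files long intergenic RNAs, antisense RNAs and spliced or intron-retaining transcripts without a clear reading frame under noncoding types. An entry can thus stand alone or overlap a coding gene.

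The files give transcript identifiers only, and none of the 1258 was paired with a gene name or a position, so the transcripts' sequences, genes and overlaps are not described. There are 128 pairs of consecutive identifier numbers among them, and transcripts of 1 gene could not be recognised. Values are normalised read counts, meaning reads divided by 1 factor per library. They are not corrected for transcript length, so a higher value means more reads and not more molecules.

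The libraries matched their labels at the targeted genes. Stem cell markers were looked at in the Dcr libraries only, where their summed values overlapped between genotypes. Dicer1 was at 19462 ± 947 (SD, n = 2) in Dcr WT and 8696 ± 1033 (SD, n = 3) in Dcr KO, and the sources used here do not give which part of the gene was deleted. Myc was at 9231 ± 2479 (SD, n = 2) in Dcr WT and 917 ± 422 (SD, n = 3) in Dcr KO, with a log2 fold change of −3.44 (limma adjusted p = 0.000289). In the cMyc pair Myc held 446 reads in cMyc flox and 12 in cMyc KO, a ratio of 0.0231 (95% exact interval 0.0119 to 0.0408). The Dcr libraries held from 101815723 to 278006158 recovered reads, with the fewest in Dcr WT library 1, and the cMyc libraries 24660365 and 31633011. The summed value of 10 stem cell markers, Pou5f1, Sox2 and Nanog among them, ranged from 1004196 to 1172451 in Dcr WT and from 1052498 to 1220149 in Dcr KO. Of the 10, 1 rose (Fgf4, log2 fold change 0.56, limma adjusted p = 0.0123) and 1 fell (Tdgf1, −0.86, 0.0224). Of 10 fibroblast markers 9 were tested, and 2 rose and 6 fell. Their summed value was 31017 to 43675 in Dcr WT and 5039 to 8305 in Dcr KO, with 0 markers at 0 in all libraries. Of 10 primitive endoderm markers 1 rose and 4 fell, with sums of 149686 to 163268 in Dcr WT and 271595 to 294967 in Dcr KO. Sparc, an extracellular matrix protein gene, alone went from 59198 to 62248 up to 202097 to 212098, and without it the sums turned, at 90488 to 101020 in Dcr WT and 59497 to 88930.0 in Dcr KO. The part of these markers in the results below was not tested. In such bulk samples, fewer cells of a type and less RNA per cell cannot be told apart.

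Most noncoding VEGA transcripts were silent or nearly so in these cells. Of the 1258, 533 had 0 reads in all 5 Dcr libraries and 208 had some reads but did not reach a value of 1 in at least 2 libraries. The other 517, or 41.1%, were tested, against 83.2% of coding features. Among the 517 the mean over the 5 libraries ran from 0.612 to 13228 with a median of 16.9, whereas the median of tested coding features was 2737. In single libraries 457 to 534 transcripts had at least 1 read, with 457 in Dcr WT library 1. In that library 1 read is worth a value of 2.01, and in the others 0.764 to 0.913.

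A few transcripts supplied most of the signal. The 2 with the highest mean held 23.9% of the summed value, the top 6 held 40.8% and the top 15 held 56.0%. Means of at least 100 were reached by 111 transcripts and means of at least 1000 by 18. The summed value of all 1258 was 98503 and 96486 in Dcr WT (library 1 first, here and below) and 80182, 82486 and 78909 in the knockout lines, in the order 1, 3, 4. The sums of the genotypes did not overlap, and the mean of the knockout lines was 0.826 of the wild-type mean. Without the top 15 the sums were 41828 and 42138 in wild-type cells and 34986, 34961 and 38003 in the knockout lines, again with no overlap. As a share of reads, the set took 0.0481% and 0.0511% in Dcr WT and 0.0365%, 0.0388% and 0.0410% in Dcr KO.

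Loss of Dicer went with changes in both directions, more often downwards. Dcr KO was compared with Dcr WT by limma on log2(value + 1) across all 42358 tested features, and a change was called where the p adjusted by Benjamini-Hochberg was under 0.05. Of the 517 transcripts 47 rose and 76 fell, that is 9.09% and 14.7%, and 394 did not pass. Over all 42358 features 16.9% were called higher and 14.8% lower, and over coding features 20.5% and 22.7%. The share that fell thus lay near that of all features. The median log2 fold change was −0.20, against 0.08 for all features and −0.06 for coding features, most of which had far more reads. The count fell with fewer knockout lines. Leaving out line 1 gave 23 rises and 44 falls, line 3 gave 22 and 48, and line 4 gave 23 and 47. Over all features the count fell likewise, from 7171 rises and 6273 falls. There, leaving out line 1 gave 4386 and 4335, line 3 gave 3782 and 3847, and line 4 gave 4378 and 4275. With no filter on low values, 30 rose and 54 fell, and 22 of the 47 and 44 of the 76 were still called.

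**Figure D1:**
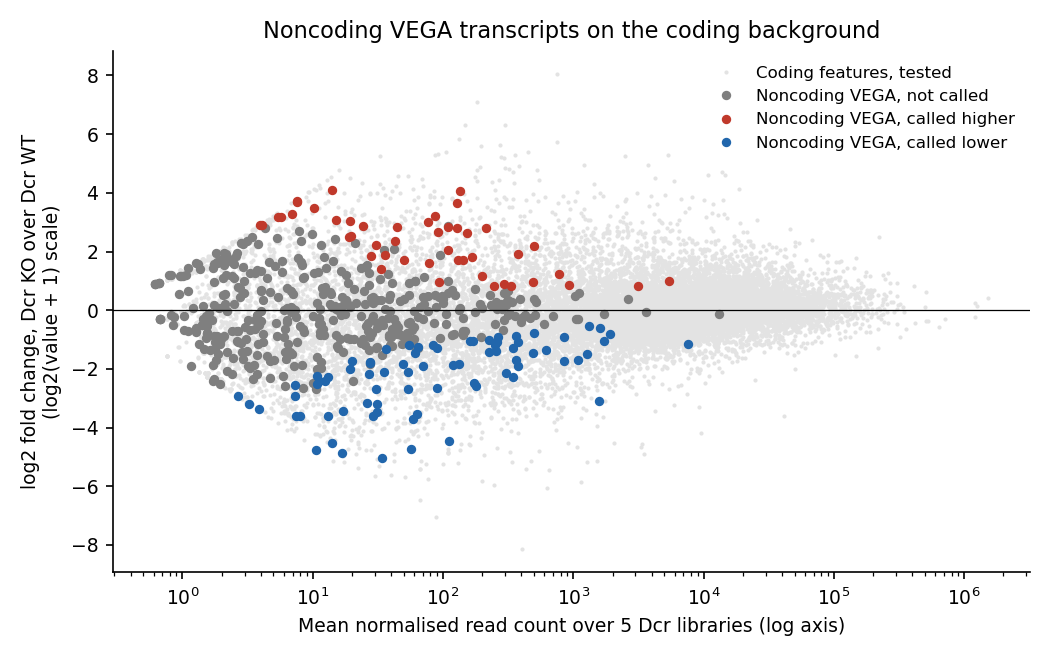
Log2 fold change, Dcr KO over Dcr WT, of the 517 tested noncoding VEGA transcripts against their mean normalised read count on a log axis, with tested coding features in light grey. Red points are the 47 that rose, blue points the 76 that fell and dark grey points the 394 not called; most lie to the left of the bulk of coding features.

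Because calls become more frequent with more reads, the transcripts were set beside coding features of equal read count. The 517 were divided into 4 bands at the quartiles of their mean value. In the lowest band, up to 3.79, 0 of 130 rose and 2 fell (1.54%), and of 760 coding features 0.395% rose and 1.18% fell. edgeR and DESeq2 also called 0 of the 130 higher, and 2 were higher by limma at an unadjusted p under 0.05. In the second band, up to 16.9, 7.75% of 129 rose and 10.9% fell, against 6.30% and 14.2% of 1095 coding features. In the third, up to 76.1, 8.53% rose and 18.6% fell, against 11.4% and 26.1% of 1427. In the highest, 20.2% rose and 27.9% fell, against 21.7% and 28.5% of 10232.

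Weighted by the number of transcripts per band, coding features came to 9.93% higher and 17.5% lower, beside 9.09% and 14.7% for the VEGA transcripts. Their weighted median log2 fold change was −0.40, beside −0.20. So weighted, the noncoding set held no larger share of calls than coding features in either direction. In the highest band the coding features had far more reads, with a median of 2570 against 257. With 10 bands the weighted shares of coding features were 9.27% and 18.2%. In the ninth of these, with means of 110.2 to 307.0, 26.9% of 52 transcripts fell against 36.5% of 1208 coding features. In the tenth, 36.5% of 52 fell against 27.3% of 8624, whose median value was 3466. These shares are descriptions, and the differences between them were not tested.

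**Figure D2:**
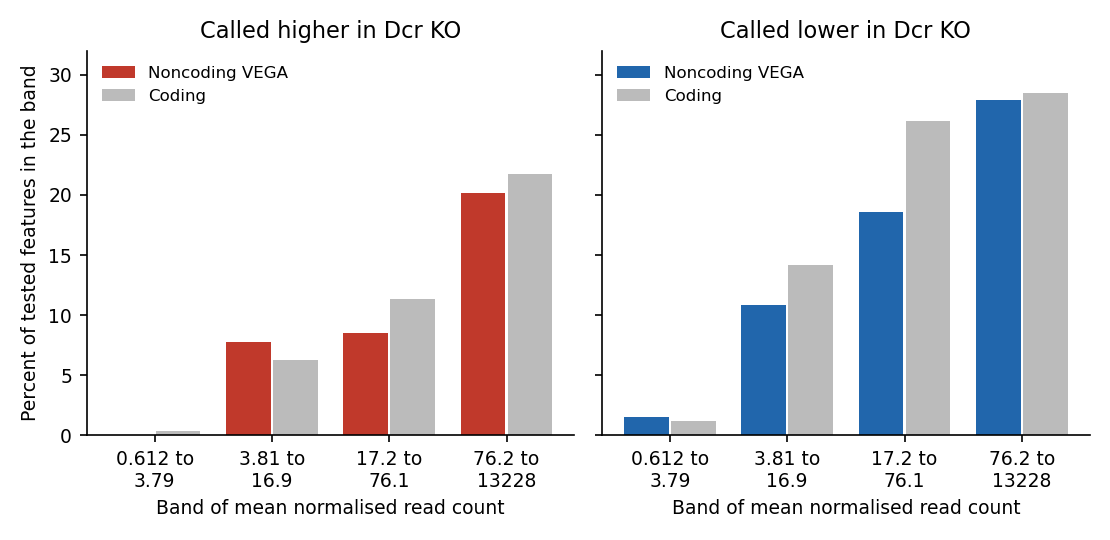
Percent of tested features called higher (left) or lower (right) in Dcr KO, in 4 bands of mean normalised read count cut at the quartiles of the noncoding VEGA transcripts. Coloured bars are noncoding VEGA transcripts and grey bars coding features; both rise together with read count, from at most 1.54% in the lowest band to 27.9% and 28.5% lower in the highest.

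Precision rose with read count. The median standard error of the log2 fold change was 1.13 in the lowest band, 0.85 and 0.53 in the next, and 0.29 in the highest. The smallest change that was called was 2.93 in size in the lowest band and 0.52 in the highest. Coding features had median standard errors of 1.10, 0.86 and 0.53 in the lowest 3 bands. In the highest they had 0.19, below that of the transcripts, and their smallest called change was 0.41 in size. Through the filter, 55 transcripts passed by Dcr KO alone, being under 1 in both wild-type libraries, and 9 of them were called. Another 10 passed by Dcr WT alone, and 4 of them were called.

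All 47 transcripts that rose were higher in each knockout line than in both wild-type libraries, and all 76 that fell were lower in each. This largely follows from the call, which was made on the same values, and adds no support to it. Over all 517, genotypes did not overlap in 105 transcripts higher in Dcr KO (20.3%) and in 151 lower (29.2%). Over all features tested these shares were 30.0% and 27.4%. Of the 47, 39 had a log2 change of at least 1, as had 69 of the 76. edgeR's quasi-likelihood test on the recovered reads called 41 of the 47 and 72 of the 76, where it called 15.6% of all features higher and 15.3% lower. DESeq2 called 41 and 74 of them, and 16.7% and 16.2% of all features. The call was lost without at least 1 of the 5 libraries for 31 of the 47 and 40 of the 76, and 0 changed sign.

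Among transcripts with at least the median read count, the largest rises had low wild-type values, uneven in most. OTTMUST00000007707 had values of 4.02 and 29.2 in Dcr WT, and of 267.9, 246.7 and 126.3 in Dcr KO. Every knockout line was at least 4 times the higher wild-type library, and the wild-type libraries were themselves far apart. Its log2 fold change was 4.05 ± 0.69 (SE; limma adjusted p = 0.00239), 2.75 without Dcr WT library 1 and 5.34 without library 2. With no filter on low values it was not called (adjusted p = 0.0655). OTTMUST00000070688 had values of 8.05 and 26.5 in Dcr WT, and of 149.1, 253.6 and 199.0 in Dcr KO. The groups were again far apart, with a log2 fold change of 3.64 ± 0.50 (limma adjusted p = 0.000804), or 2.84 and 4.44 without Dcr WT libraries 1 and 2. The next 4 had log2 fold changes of 2.86 to 3.20. The first of those, at 2.01 and 60.2 in Dcr WT and 113.3 to 130.4 in Dcr KO, was not called by edgeR (adjusted p = 0.0524) or DESeq2 (0.242), nor without any 1 knockout line (up to 0.141). The second of them was not called without line 3 (0.0523) or line 4 (0.0642), and the last of them without line 1 (0.0548) or line 4 (0.0506), with limma. With no filter these 3 had adjusted p of 0.216, 0.0689 and 0.0541 by limma. The last of them was even in Dcr WT, at 4.02 and 3.65, and uneven in Dcr KO, at 53.2, 17.6 and 42.1.

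Among transcripts with at least the median read count, the largest falls ended near 0, which falls of that size at such values entail. OTTMUST00000017945 had values of 76.4 and 87.6 in Dcr WT, and of 5.32, 1.53 and 0 in Dcr KO. The wild-type libraries lay close together, and the line with no read was line 4. Its log2 fold change was −5.04 ± 0.84 (limma adjusted p = 0.00219), −5.70 without line 1 and −4.37 without line 4. OTTMUST00000082362 had values of 128.8 and 140.6 in Dcr WT, and of 2.66, 3.06 and 7.65 in Dcr KO, a 30.2-fold difference in means with a log2 fold change of −4.75 ± 0.59 (adjusted p = 0.000487). Its 5 values left a wide gap between genotypes. The next 4 had log2 fold changes of −4.46 to −3.54, and each remained called when any 1 library was left out. With no filter the second and the fourth of them were not called (limma adjusted p = 0.106 and 0.0537). The first of them, at 144.8 and 375.2 in Dcr WT and 6.11 to 16.1 in Dcr KO, moved to −3.78 without Dcr WT library 2 and −5.15 without library 1. The second, with 1.77 in line 1 and 13.0 and 24.5 in lines 3 and 4, moved to −2.78 without line 1.

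Some called transcripts had 0 reads in all libraries of a genotype, so that only a lower bound of the fold can be given, against a floor of 3 reads over the group. For 7 that rose, with no read in Dcr WT, the knockout means were 6.58 to 12.6, at least 3.49-fold to 6.67-fold higher. For 4 that fell, with no read in Dcr KO, the wild-type means were 6.67 to 26.6, at least 8.32-fold to 33.2-fold lower. All of these passed the filter only through the genotype that had reads. No read in Dcr WT was found for 43 of the 517 transcripts and for 1167 of all 42358 tested features. No read in Dcr KO was found for 8 and 204. With such transcripts set at their bounds the median log2 fold change of the 517 stayed at −0.20. That of the 76 that fell stayed at −1.95, and that of the 47 that rose went from 2.49 to 2.22.

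**Figure D3:**
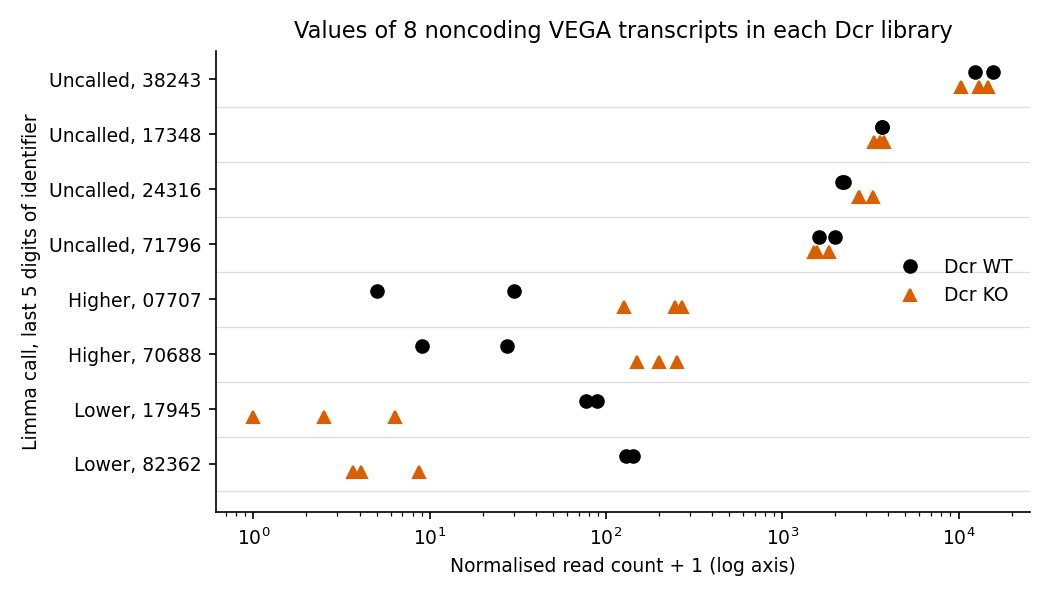
Normalised read count plus 1, on a log axis, of 8 noncoding VEGA transcripts in 2 Dcr WT libraries (black circles) and 3 Dcr KO lines (orange triangles), named by the end of the identifier. From the top, the 4 uncalled transcripts with the most reads, the 2 largest rises and the 2 largest falls are shown. The last 4 were picked by size of change among called transcripts with at least the median read count, so their genotypes lie far apart.

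The 15 transcripts with the most reads held 2 that rose, 8 that fell and 5 that did not pass. Among all features 14.8% fell, and among coding features in the tenth of the 10 bands 27.3%. OTTMUST00000038243 had the most reads of all, with 15643 and 12362 in Dcr WT and 13053, 14700 and 10381 in Dcr KO, and its groups overlapped (log2 fold change −0.14, limma adjusted p = 0.574). OTTMUST00000017348, the fourth, was even across the libraries, at 3704 and 3662 in Dcr WT and 3599, 3769 and 3319 in Dcr KO (−0.05, adjusted p = 0.818). OTTMUST00000024316, the sixth, had 2239 and 2187 in Dcr WT and 2711, 2728 and 3262 in Dcr KO. Its groups did not overlap but it did not pass (0.38, adjusted p = 0.0928). OTTMUST00000071796 overlapped between groups, at 1994 and 1610 against 1505, 1582 and 1835 (−0.13, adjusted p = 0.600).

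Of the other high-count transcripts, the second fell from 10550 and 12287 in Dcr WT to 5026, 4930 and 5363 in Dcr KO. Its log2 fold change was −1.16 ± 0.14 (limma adjusted p = 0.000470), and the knockout lines were close together. The third rose from 3581 and 3056 to 7795, 7654 and 4835, with line 4 below the other lines. Its log2 fold change was 1.00 ± 0.22 (adjusted p = 0.00812), and it was not called without line 1 (0.0573) or with no filter (0.0853). The fifth rose from 2796 and 1615 to 3171, 4051 and 4089 (0.82 ± 0.24, adjusted p = 0.0271), and it was not called without Dcr WT library 2 or any 1 knockout line (adjusted p up to 0.113), or with no filter (0.147). The largest change among the 15 was in the transcript ranked 11, chosen here after its values were seen. It fell 8.82-fold, from 2587 and 4171 to 449, 384 and 317 (−3.11 ± 0.25, adjusted p = 5.33e-05).

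In the highest band of read count, the knockout line that most often had the highest value differed between the set and coding features. Each line has 1 library, so a line and its library cannot be told apart, and transcripts of a library are not replicates. In the highest band line 4 held the highest of the 3 values in 61 of 129 transcripts (47.3%), line 3 in 35 and line 1 in 33 (25.6%). Among coding features of that band line 4 was highest in 25.2% and line 1 in 46.2%. Those coding features had far more reads, with a median of 2570 against 257. Over all 517, line 4 was highest in 40.2%, line 3 in 29.4% and line 1 in 30.4%. Over the 517 tested transcripts, the median log2 difference from the wild-type mean was −0.21 in line 1, −0.10 in line 3 and −0.13 in line 4. The median SD over the 3 lines was 0.97 on the log2(value + 1) scale in the lowest band and 0.24 in the highest, beside 0.81 and 0.15 for coding features.

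Other noncoding catalogues ranged on both sides of these shares. Of 4412 tested noncoding features from the other sources, 9.52% rose and 15.1% fell, with a median log2 fold change of −0.22 and a median value of 38.1. The knownLinc source had 20.7% lower, the UCSC models 19.5%, the MGI entries 10.1% and the GenBank transcripts 8.78%. VEGA identifiers also occur in other classes. Of 179 tested coding VEGA features 34 rose and 31 fell, and of 554 VEGA pseudogenes 81 and 116, or 14.6% and 20.9%. The pseudogenes had far more reads, with a median value of 1099, so these shares are not at equal level. From a list of 30 known long noncoding RNAs, 20 were found and tested, of which 0 rose and 4 fell by limma. edgeR and DESeq2 also called 0 higher and each called 5 lower, and 2 were higher by limma at an unadjusted p under 0.05. Those that fell were Snhg8, a snoRNA host gene (log2 fold change −1.30, adjusted p = 0.000586), Dancr (−1.07, 0.00246), Pvt1, the neighbour of Myc (−0.87, 0.00393), and Firre, which lies on the X chromosome (−0.66, 0.0167).

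The cMyc pair, from cells other than those of the Dcr comparison, has 1 library a genotype, so no test was made and a difference has no replicate check. Of the 497 transcripts listed for that pair, 103 had 0 reads in both libraries, and 98 had at least 20 reads over both. Of the 98, 6 were at least 2-fold higher in cMyc KO and 8 at least 2-fold lower, that is 6.12% and 8.16%. Over all features with at least 20 reads 1.75% and 2.4% passed 2-fold, and over coding features 1.72% and 0.735%. Those past 2-fold had only 21 to 60 reads over both libraries. In 4 bands of equal reads, weighted likewise, coding features came to 7.94% higher and 3.03% lower. In the second band, 29 to 48 reads, 1 of 25 transcripts was higher and 7 were lower (28.0%). Of 613 coding features there 10.1% were higher and 4.08% lower. In the highest band, from 115 reads, 0 of 25 transcripts passed the fold in either direction. Of 8348 coding features there 0.527% were higher and 0.359% lower.

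The ratios as a whole lay below those of coding features. The median ratio of cMyc KO to cMyc flox was 0.860 over the 98, against 1.09 for coding features of equal reads and 1.05 over all features. A ratio below 1 was found in 63 of the 98 (64.3%), and in 40.2% of coding features of equal reads. An exact 95% interval, which covers counting error only, lay wholly below 1 in 20 transcripts and wholly above 1 in 8. For coding features of equal reads those shares were 7.38% and 14.8%, beside 20.4% and 8.16%. In the 4 bands the median ratio was 1.02, 0.782, 0.838 and 0.847, and that of coding features 1.12, 1.09, 1.07 and 1.07. The other noncoding sources had medians of 0.775 to 0.917. Medians below 1 were not limited to noncoding features. They were 0.912 for 57 coding VEGA features, 0.788 for unannotated features and 0.732 for repeats, while pseudogenes had 1.01. Of the coding VEGA features, 63.2% had a ratio below 1. These other sources were not matched to the transcripts by reads. Ribosomal RNA took 28.1% of the reads in cMyc flox and 30.0% in cMyc KO, and its part in these ratios was not tested. Total count scaling moved the median of all features by −0.14 (log2) and gave a median of 0.780 for the 98 against 0.95 for all.

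**Figure D4:**
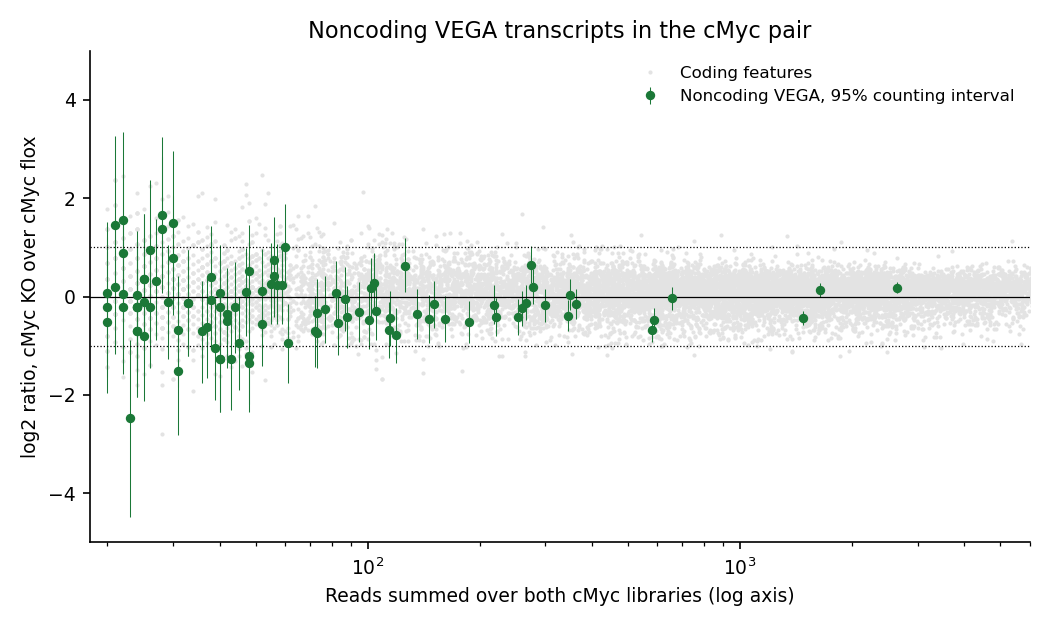
Log2 ratio, cMyc KO over cMyc flox, of 98 noncoding VEGA transcripts (green, with 95% counting intervals) against the reads summed over both libraries on a log axis, with coding features in grey up to the axis end. Dotted lines mark 2-fold; the 14 transcripts past them have 21 to 60 reads.

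Single ratios at the ends were imprecise. The lowest came from 19 reads in cMyc flox and 4 in cMyc KO, a ratio of 0.181 (95% interval 0.0448 to 0.545), in a transcript that did not pass in the Dcr comparison. The highest came from 6 and 22 reads, at 3.15 (1.24 to 9.50). Transcripts with many reads had ratios closer to 1. The one with the most reads in the Dcr table had 720 and 918 reads, a ratio of 1.10 (0.993 to 1.21), and the second there had 794 and 682, at 0.739 (0.666 to 0.819). The transcript ranked 11 in the Dcr libraries had 319 and 267 reads, at 0.720 (0.609 to 0.849). The 4 transcripts given above for the largest rises and falls with Dicer had fewer than 20 reads over the cMyc pair.

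All 98 had been tested in the Dcr comparison too. Of the 34 that fell in Dcr KO, 25 had a cMyc ratio below 1 (73.5%, median ratio 0.853), as had 6 of the 12 that rose (median 0.963) and 32 of the 52 not called (61.5%, median 0.887). Of coding features called lower in Dcr KO 30.5% had a ratio below 1, and of those called higher 43.6%. These coding features were not matched to the transcripts by reads. Past 2-fold in the cMyc pair, 2 of the 34 were lower and 1 was higher, while 0 of the 12 passed in either direction. Of the 52 not called, 6 were lower and 5 higher. The first of the 2 was at 368.1 and 348.7 in Dcr WT and at 149.1, 124.5 and 130.1 in Dcr KO (log2 fold change −1.41, limma adjusted p = 0.00293), with a cMyc ratio of 0.352 (95% interval 0.143 to 0.795). The other had −1.39 (limma adjusted p = 0.00684, and 0.0507 with no filter) and a ratio of 0.415 (0.203 to 0.811). The one that moved apart had −1.19 in the Dcr comparison and a cMyc ratio of 2.01 (1.13 to 3.70). Across the 98, Pearson's r between both log2 changes was 0.09 and Spearman's rho 0.14, given as a description, since the points share the same libraries and many have few reads.

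**Figure D5:**
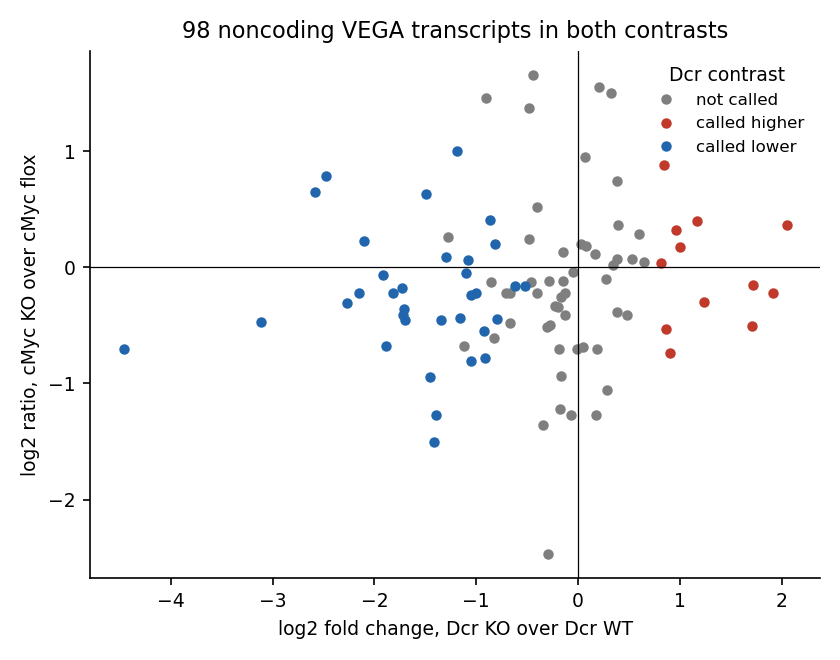
Log2 ratio in the cMyc pair against log2 fold change in the Dcr comparison for 98 noncoding VEGA transcripts with at least 20 cMyc reads, coloured by the limma call in the Dcr comparison. Points spread around both axes; 25 of the 34 blue points, called lower in Dcr KO, lie below a cMyc log2 ratio of 0.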

How the data were processed

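The authors deposited 2 tables of normalised signal per feature. The values show them to be reads scaled by 1 factor a library: in each of 7 columns 100% were whole multiples of 1 step within 0.01 read. Per the submitters' processing notes, TopHat, Bowtie and DESeq were used with mm9. The sources used here give neither counter nor gene models nor use of strand, so overlapping transcripts are uncertain. All value columns were tied to samples by name. The column name of Dcr WT library 1 ends in another number than those of the other Dcr libraries, which no label explains; that library is also the shallowest, and a batch was not tested. The 4 chromatin libraries are not analysed here. Features reaching 1 in 2 or more Dcr libraries were fitted with limma 3.58.1 in R 4.3.3 (pseudocount 1, trend), and fold changes on that scale understate changes near 0. edgeR 4.0.16 and DESeq2 1.42.0 ran on recovered reads and called 6594 features higher and 6466 lower, and 7067 and 6859. The fits were tested on simulated data. cMyc ratios carry exact binomial intervals, with reads not being independent molecules. Coding features were banded by mean value at the transcripts' quartiles. RefSeq symbols came from GRCm38.p6 names (20206 of 20846 matched). The set and lists were chosen with earlier results of these data known. Named transcripts were those with the most reads and those with the largest called changes at or above the median read count; others are marked. Because no names pair with identifiers, at most 2 per direction are given by identifier.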

Additional observations from a re-analysis of the deposited data

How the results depend on the processing

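No paired analysis was possible. The numbers of the Dcr KO libraries name lines and those of Dcr WT name replicates, so no label pairs them. The cMyc groups have 1 library each. Leaving out 1 library gave 22 to 53 transcripts higher and 44 to 58 lower, and 3782 to 8022 and 3847 to 5935 over all features. Without a Dcr WT library that arm has 1 sample, which is assumed to vary like the knockout lines, and these fits gave the upper end of the higher calls; the cause was not tested. With no filter the counts over all features were 4169 and 3967 and those of the set 30 and 54, with a median log2 fold change of 0, since silent transcripts enter. That median was −0.14 with a pseudocount of 5, −0.27 with total count scaling, and −0.21 to −0.12 without 1 library. Coding features of equal read count had a median of −0.48 in 10 bands. In 14 of 14 alternatives (no filter aside) the share of the set called lower was below that of coding features, weighted by read-count band. The gap was 1.96 to 4.37 percentage points, and 0.0142 to 2.33 for higher calls. These alternatives reuse the same 5 libraries and are not separate evidence. In the highest of the 4 bands coding features had far more reads (median 2570 against 257). In the tenth of 10 bands the order turned, with 36.5% of transcripts lower against 27.3% of coding features. In the cMyc pair, 1 was higher and 0 lower at 50 reads, 16 and 16 at 10 reads, and 12 and 21 at 1.5-fold; the first leaves 48 transcripts. Of the single transcripts' alternatives 355 kept their side of the threshold, 23 lost the call and 0 reversed. Those single transcripts were picked by read count or size of change, and the uncalled ones among them had no call to lose. Their tally does not stand for all called transcripts. Depth limits the lowest band, where a log2 change under 2.93 was not called, and the cMyc pair, where the median transcript had 48 reads.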
